A study of Mus musculus with 9 samples.

Results

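The comparison is the effect of losing delta-sarcoglycan on the transcripts of the mouse left ventricle while the thromboxane-prostanoid receptor antagonist ifetroban is given to both genotypes. It rests on 5 of the 9 libraries of the series, chosen by their titles: 3 libraries labelled dSG KO-ifetroban (knockout, ifetroban treated) and 2 labelled WT-ifetroban (wild type, ifetroban treated). The other 4 libraries, 2 knockout and 2 wild type on vehicle, lent their spread to the statistical model and are otherwise used only to set the same genotype difference without drug beside that on ifetroban. The assay was sequencing of polyadenylated RNA, read as counts per gene. The labels used here give no strain, sex, age, dose or length of treatment, do not say which exons of the gene were removed, and are silent on whether each library is a different mouse. The p-values below therefore describe how these samples vary, technical variation included.

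Delta-sarcoglycan, encoded by Sgcd, is a membrane protein of the sarcoglycan complex, which sits within the dystrophin-glycoprotein complex and helps to tie the cytoskeleton of muscle cells to the surrounding matrix. Without it the membrane of heart and skeletal muscle fibres tears under load, and hearts of mice and patients develop cardiomyopathy with cell loss, inflammation and fibrosis. Ifetroban blocks the receptor encoded by Tbxa2r, through which thromboxane and some other prostanoids contract vessels and activate platelets.

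Counts in genes were 21628693, 31394548 and 24436959 in the KO-ifetroban libraries and 26319517 and 24920107 in the WT-ifetroban libraries. Mitochondrial genes took 16.1% to 20.5% of these counts. The libraries of a group were not alike. Expression of long relative to short transcripts was low in KO-ifetroban replicate 1 (Spearman -0.42, computed over genes) but high in the remaining 4 (0.33 to 0.39). Genes are not independent replicates, so this only describes the libraries. On the first principal component of all 9 libraries, which held 47.5% of the variance, KO-ifetroban replicate 1 stood at 34.2, replicates 2 and 3 at -1.11 and -9.80, and the WT-ifetroban libraries at -32.4 and -38.2. KO-ifetroban replicate 3 alone held reads of fast skeletal muscle, with 247 reads of Myh1 and 102 of Myh4 against at most 6 of either in the other 4 libraries. KO-ifetroban replicate 1 held 98 reads of Alb, the albumin gene of the liver, against 11 and 7 in the other knockout and 3 and 0 in the wild-type libraries. Ventricular markers were present throughout, and the atrial markers Sln and Myl7 had at most 1 and 8 reads in any of the 5 libraries. Values without KO-ifetroban replicate 1, which are also the values within the libraries of 1 length class, are therefore given beside the results they move most.

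The knockout heart on ifetroban differed from the wild-type heart on ifetroban most firmly at 2 neighbours of the deleted gene on chromosome 11. Pttg1, which encodes securin, the inhibitor of the protease that parts sister chromatids, fell to 1.66 to 1.96 CPM (counts per 1000000 counts, TMM-scaled) in KO-ifetroban libraries, against 46.2 and 46.6 CPM in WT-ifetroban libraries. Cyfip2, which encodes a subunit of the WAVE complex that starts branched actin filaments, fell to 25.6 to 44.9 CPM in KO-ifetroban libraries, against 255 and 265 CPM in WT-ifetroban libraries. No gene rose in the edgeR test over 15261 genes. Many genes of the matrix, of macrophages and of complement were nevertheless higher in every knockout library than in both wild-type libraries, and are described below by their values.

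Pttg1 (ENSMUSG00000020415, GRCm38 chromosome 11, 43420250 to 43426251, minus strand) stood at 1.96, 1.66 and 1.94 CPM in KO-ifetroban libraries and 46.6 and 46.2 CPM in WT-ifetroban libraries. The groups were far apart, and the spread within each was small. Pttg1 fell by 4.65 ± 0.250 on the log2 scale (SE; edgeR, Benjamini-Hochberg adjusted p = 0.000108; 3 libraries against 2). It was called in all 18 alternatives to that fit.

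Cyfip2 (ENSMUSG00000020340, chromosome 11, 46193850 to 46312859, minus strand) stood at 25.6, 27.6 and 44.9 CPM in KO-ifetroban libraries and 255 and 265 CPM in WT-ifetroban libraries. Replicate 3 was the highest of the knockout libraries and still far below both wild-type libraries. Cyfip2 fell by 2.99 ± 0.312 (edgeR adjusted p = 0.0232). Its log2 fold change stayed between -3.30 and -2.84 in the 18 alternatives, but the call was lost in 7 of them: on leaving out any wild-type library or replicate 1 or 2 of KO-ifetroban, and on adding a length class term (edgeR adjusted p from 0.0546 to 0.334).

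**Figure D1:**
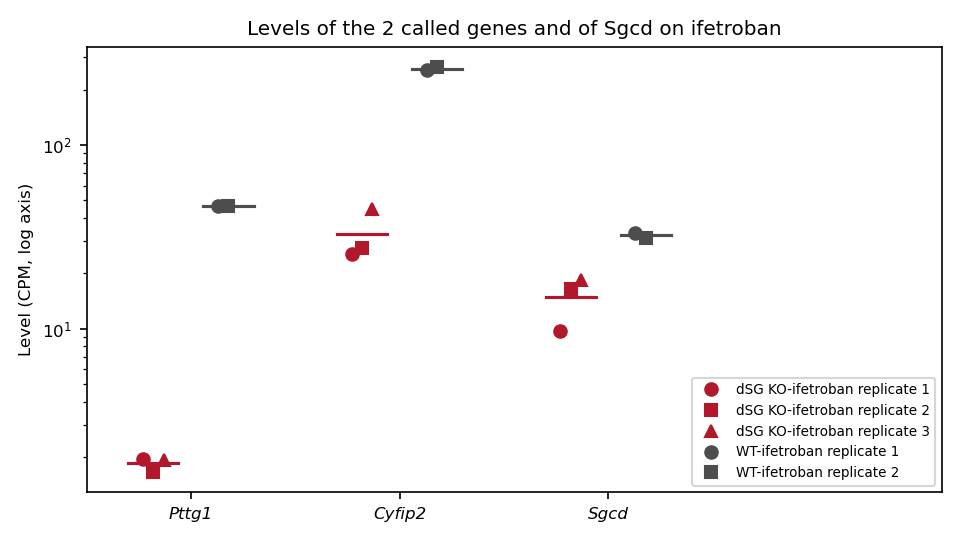
Levels of Pttg1, Cyfip2 and Sgcd in each library, in CPM on a log axis, with dSG KO-ifetroban libraries left of WT-ifetroban libraries and lines at the group means. The knockout libraries lie below both wild-type libraries for all 3 genes, at 1.66 to 1.96 CPM against 46.2 and 46.6 CPM for Pttg1, and with a smaller gap for Sgcd, the deleted gene.

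Because these 2 genes are the ones that fell, the sequences around their RefSeq starts are shown, from 250 bases before to 50 bases after. They are on the minus strand of GRCm38.p6, chr11:43425932-43426231 for Pttg1 and chr11:46312309-46312608 for Cyfip2. Both windows lie inside the gene spans given above. The starts used are thus not the outermost annotated ones, and bases before the outermost starts were not searched. Capitals mark the motif GGGCGG, a GC box.
Pttg1: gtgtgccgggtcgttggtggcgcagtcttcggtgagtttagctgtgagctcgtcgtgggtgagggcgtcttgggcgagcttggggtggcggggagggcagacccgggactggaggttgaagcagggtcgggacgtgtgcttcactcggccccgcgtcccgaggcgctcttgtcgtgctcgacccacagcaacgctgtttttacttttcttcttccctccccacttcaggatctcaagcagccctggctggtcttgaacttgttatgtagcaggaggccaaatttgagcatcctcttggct
Cyfip2: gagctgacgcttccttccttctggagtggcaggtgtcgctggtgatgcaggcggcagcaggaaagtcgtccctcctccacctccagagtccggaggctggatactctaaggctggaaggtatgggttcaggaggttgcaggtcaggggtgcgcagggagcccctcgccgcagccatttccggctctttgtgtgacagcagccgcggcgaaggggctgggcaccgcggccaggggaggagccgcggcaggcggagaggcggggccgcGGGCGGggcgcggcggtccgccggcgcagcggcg
Both strands of each were searched for 4 short motifs: CCAAT, which is bound by the factor NF-Y, then the cell cycle element TTTGAA, then the GC box GGGCGG already named, and lastly the TATA box, spelled as TATAA. No match of any was found in the Pttg1 window, and 1 GC box in the Cyfip2 window, so the pair shared none of them. Among 32851 RefSeq promoters of this length, 37.4% hold the first of these on either strand, 17.9% the second, 35.7% the GC box and 24.9% the TATA box. With a single match, no motifs overlapped in these windows. A match or its absence describes these letters only.

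Sgcd itself (ENSMUSG00000020354, chromosome 11, 46896253 to 47988969, minus strand) checks the labels. It stood at 9.77, 16.4 and 18.5 CPM in KO-ifetroban libraries and 33.1 and 31.2 CPM in WT-ifetroban libraries. The groups did not overlap, and transcripts were present in every knockout library. Its log2 fold change was -1.11 ± 0.385 and missed the threshold (edgeR adjusted p = 0.901). Counts per gene do not show which exons the remaining reads came from. On vehicle Sgcd stood at 7.49 and 12.1 CPM in KO-vehicle libraries and 11.1 and 28.9 CPM in WT-vehicle libraries. The value of 11.1 CPM, from the library labelled WT-vehicle replicate 1, lies within the knockout range, against that label. The same library had 76.7 CPM of Pttg1 and 194 CPM of Cyfip2, above every knockout library. Long transcripts were low in it, and the part of that in its Sgcd level was not tested. Vehicle results are given with and without it for the higher genes as a set, for Pttg1 and Cyfip2 and for the lists. Those for the lower genes as a set and for single genes of the interaction include it.

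The low values on chromosome 11 did not form one continuous block. Of 93 genes tested within 5 Mb of Sgcd, 2 were called lower, a share to be read against 0.0131% of all tested genes, and 0 were called higher. The median log2 fold change of the 93 was 0.01. At an unadjusted p under 0.05, 7 were lower (0.852% of all tested genes were) and 4 higher (3.85% of all). The deleted gene Sgcd is itself among the 93 and among the 7. Pttg1 lies 3470 kb and Cyfip2 583 kb from Sgcd, both toward lower coordinates. Between Cyfip2 and Sgcd, at 551 kb, the RNA Gm12167, annotated as antisense, stood at 1.31, 0.767 and 1.47 CPM in KO-ifetroban and 5.10 and 5.39 CPM in WT-ifetroban libraries (log2 fold change -2.16 ± 0.395). It was not called by edgeR (adjusted p = 0.543) and was called by DESeq2 (adjusted p = 0.000463). Ublcp1, a phosphatase gene 2426 kb from Sgcd, stood at 15.3, 14.3 and 14.2 CPM in KO-ifetroban and 23.4 and 22.9 CPM in WT-ifetroban libraries (-0.67 ± 0.168). Havcr2, the checkpoint receptor gene at 415 kb, had a log2 fold change of 1.38 ± 0.562 with groups apart in the other direction. The deletion and any nearby sequence that came with it into the knockout line cannot be told apart in this design.

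Over all genes, 0 were called higher and 2 lower by edgeR, 0% and 0.0131% of 15261. At an unadjusted p under 0.05 there were 588 higher (3.85%) and 130 lower (0.852%), together 718 genes or 4.70%, fewer than the 763 that make up 5% of the genes tested. DESeq2 called 64 higher (0.419%) and 5 lower (0.0328%), limma voom with sample weights 66 and 8, and edgeR on the 5 ifetroban libraries alone 10 and 2. DESeq2 and voom shared 42 higher and 5 lower genes. The 5 lower genes of DESeq2 were Pttg1, Cyfip2, Gm12167, Sv2c and Lrtm1. The groups also differed in spread. The mean variance of log2 CPM was 0.139 in KO-ifetroban and 0.100 in WT-ifetroban libraries, against 0.327 in KO-vehicle and 0.189 in WT-vehicle libraries, all of which enter the shared estimate.

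The 12 genes with the smallest p on the higher side, among named genes with groups apart and a mean log2 CPM of at least 1, included Trem2 of the macrophage list. They are given here as values, since none passed the edgeR test (adjusted p = 0.543 to 0.545); each of the 12 was called by DESeq2 (adjusted p from 0.000463 to 0.0269) and by voom (adjusted p from 0.0191 to 0.0314). Trem2, a lipid-sensing receptor of macrophages and microglia, stood at 5.38, 3.74 and 5.58 CPM in KO-ifetroban and 1.69 and 1.27 CPM in WT-ifetroban libraries (log2 fold change 1.72 ± 0.282). Fcrls, an Fc-receptor-like gene of mouse microglia and some macrophages, stood at 10.2, 11.1 and 12.02 CPM in KO-ifetroban and 5.18 and 5.63 CPM in WT-ifetroban libraries (1.04 ± 0.179). Ctss, the lysosomal protease cathepsin S, stood at 44.4, 34.4 and 33.1 CPM in KO-ifetroban and 14.5 and 10.9 CPM in WT-ifetroban libraries (1.56 ± 0.290). All 3 genes had every knockout library above both wild-type libraries.

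The complement receptor gene C3ar1 stood at 13.9, 15.6 and 15.2 CPM in KO-ifetroban and 7.90 and 4.91 CPM in WT-ifetroban libraries (1.21 ± 0.240). Mpeg1, a pore-forming protein of phagocytes, stood at 27.6, 36.9 and 36.0 CPM in KO-ifetroban and 15.0 and 9.90 CPM in WT-ifetroban libraries (1.43 ± 0.286). Apoe, the lipid carrier apolipoprotein E, stood at 313, 363 and 428 CPM in KO-ifetroban and 188 and 215 CPM in WT-ifetroban libraries (0.87 ± 0.177). For these 3 genes KO-ifetroban replicate 1, the library with long transcripts low, had the lowest knockout value. Without it their log2 fold changes were 1.26, 1.55 and 0.98. Most higher genes went the other way. Of all 588 genes higher at an unadjusted p under 0.05, 322 had their highest knockout value in that library and 128 their lowest.

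Csf3r, the receptor for granulocyte colony-stimulating factor, had a log2 fold change of 2.29 ± 0.450, Pou2f2, a transcription factor of B cells and myeloid cells, 1.63 ± 0.302, and Cd72, a B cell and macrophage receptor, 1.45 ± 0.278. Nckap1l, the WAVE complex subunit of blood cells, was at 0.99 ± 0.197 and Pld4, a phagocyte nuclease, at 0.92 ± 0.175. Ankrd1 is the heart muscle gene of the 12. This titin-binding protein, which stretched cardiomyocytes make, stood at 2911, 2331 and 2226 CPM in KO-ifetroban and 898 and 752 CPM in WT-ifetroban libraries (1.59 ± 0.312; 1.47 without KO-ifetroban replicate 1).

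On the lower side, by the same rule, 10 genes followed Pttg1 and Cyfip2. Lrtm1, a leucine-rich repeat membrane protein, stood at 275, 319 and 330 CPM in KO-ifetroban and 567 and 658 CPM in WT-ifetroban libraries (-0.99 ± 0.259; edgeR adjusted p = 0.571, DESeq2 adjusted p = 0.0424). Camk2b, a calcium- and calmodulin-dependent kinase subunit, stood at 10.2, 9.63 and 11.8 CPM in KO-ifetroban and 16.8 and 17.9 CPM in WT-ifetroban libraries (-0.72 ± 0.181). Both genes had groups that did not overlap. The others were the membrane protein gene Tmem150c (-0.95 ± 0.250), Egf, the epidermal growth factor (-0.93 ± 0.252), the peptide transporter gene Slc15a2 (-1.40 ± 0.382), the splicing factor gene Rbfox1 (-0.55 ± 0.160), the alanine aminotransferase gene Gpt (-0.58 ± 0.168), Mme, which encodes the peptidase neprilysin (-1.004 ± 0.309), and Armc2 (-0.76 ± 0.241). None was called by edgeR (adjusted p from 0.545 to 0.743). Sv2c, a synaptic vesicle glycoprotein gene that DESeq2 called, stood at 0.327, 0.368 and 0.698 CPM in KO-ifetroban and 2.03 and 2.54 CPM in WT-ifetroban libraries (-2.28 ± 0.445).

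**Figure D2:**
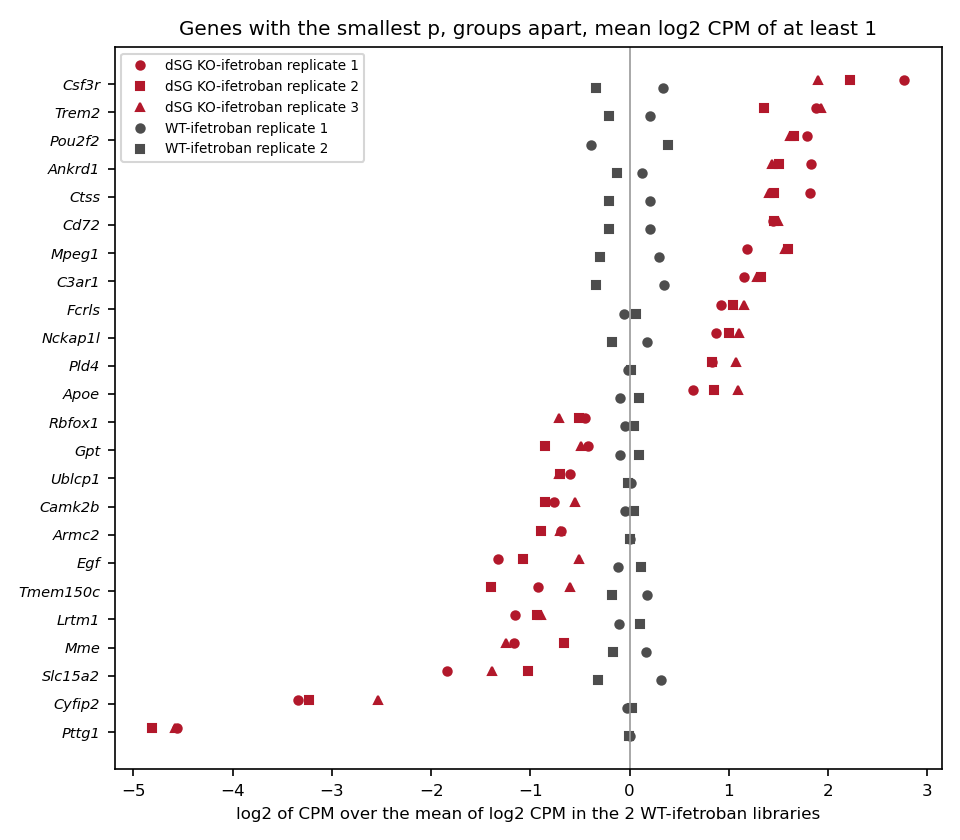
Deviation of each library from the WT-ifetroban mean on the log2 CPM scale, for the 12 genes with the smallest p in each direction among properly named genes with non-overlapping groups and a mean log2 CPM of at least 1. Red symbols are the 3 dSG KO-ifetroban libraries and grey symbols the 2 WT-ifetroban libraries; Pttg1 and Cyfip2 lie apart from the other 22 genes shown.

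The members of each gene list below are described by counts and medians beside the same over all 15261 tested genes, for which 51.8% had a positive log2 fold change, the median was 0.01, 3.85% had an unadjusted p under 0.05 on the higher side, and 16.1% had every KO-ifetroban library above both WT-ifetroban libraries (12.9% below). In a bulk sample, fewer cells of a type and less RNA per cell cannot be told apart.

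Of 23 tested collagen chains 19 had positive log2 fold changes, with a median of 0.15 (0.25 without KO-ifetroban replicate 1), 4 at an unadjusted p under 0.05 and 6 with groups apart on the higher side. Col3a1, a fibrillar collagen of distensible tissue, stood at 397, 526 and 564 CPM in KO-ifetroban and 288 and 218 CPM in WT-ifetroban libraries (log2 fold change 0.97 ± 0.256). Col1a1, the main fibrillar collagen of scars, stood at 219, 299 and 296 CPM in KO-ifetroban and 171 and 144 CPM in WT-ifetroban libraries (0.78 ± 0.202). For both, KO-ifetroban replicate 1 was the lowest knockout library and still above the wild type. Col5a2, which sets fibril thickness, was at 0.78 ± 0.208 and Col8a1, a short-chain collagen, at 0.54 ± 0.218.

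Among enzymes that modify and cross-link collagen, positive values were found for 20 of 24 genes, the median being 0.38 (0.34 without KO-ifetroban replicate 1), 8 at an unadjusted p under 0.05 and 13 with groups apart on the higher side. Lox, the oxidase that cross-links collagen and elastin, stood at 22.1, 21.1 and 18.2 CPM in KO-ifetroban and 4.53 and 5.31 CPM in WT-ifetroban libraries (2.06 ± 0.453; DESeq2 adjusted p = 0.000887). Its relative Loxl1 stood at 78.2, 75.3 and 74.9 CPM in KO-ifetroban and 39.7 and 44.3 CPM in WT-ifetroban libraries (0.86 ± 0.176). The knockout libraries were tightly grouped for both oxidases. Pcolce, an enhancer of procollagen cleavage, was at 0.51 ± 0.160. P4ha3, a collagen prolyl hydroxylase subunit, had 11, 22 and 22 reads in KO-ifetroban and 1 and 1 in WT-ifetroban libraries. With so few wild-type reads it passed the filter on low counts through other groups, and the counts of this list include it.

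Matrix glycoproteins and matricellular proteins include structural parts of the elastic fibre and proteins that signal to cells. Positive values were found for 30 of 35 genes, the median being 0.64 (0.66 without KO-ifetroban replicate 1), 17 at an unadjusted p under 0.05 and 20 with groups apart on the higher side. Thbs4, a thrombospondin made by stressed muscle and matrix cells, stood at 20.7, 18.9 and 15.9 CPM in KO-ifetroban and 7.98 and 8.48 CPM in WT-ifetroban libraries (1.17 ± 0.260). Ltbp2, a microfibril-binding protein, stood at 21.04, 17.7 and 35.3 CPM in KO-ifetroban and 8.71 and 8.20 CPM in WT-ifetroban libraries (1.54 ± 0.338). Fn1, fibronectin, stood at 163, 139 and 139 CPM in KO-ifetroban and 61.9 and 53.4 CPM in WT-ifetroban libraries (1.35 ± 0.346). The groups were apart for all 3 genes. Ccn4, a Wnt-induced matricellular protein, was at 1.89 ± 0.470. Cthrc1, a secreted protein of activated fibroblasts, had 32, 46 and 27 reads in KO-ifetroban and 9 and 5 in WT-ifetroban libraries. With so few wild-type reads it passed the filter on low counts through other groups, and the counts of this list include it.

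Spp1, osteopontin, and Timp1, an inhibitor of matrix proteases, had large fold changes and a wide spread within the knockout group. Spp1 stood at 56.8, 19.4 and 5.78 CPM in KO-ifetroban and 0.729 and 0.475 CPM in WT-ifetroban libraries (5.49 ± 1.39; edgeR adjusted p = 0.545, DESeq2 adjusted p = 0.0136). Timp1 stood at 96.8, 31.9 and 21.2 CPM in KO-ifetroban and 3.07 and 0.911 CPM in WT-ifetroban libraries (4.64 ± 1.39; edgeR adjusted p = 0.740). Replicate 1 was the highest and replicate 3 the lowest knockout library for both genes, and the lowest was still above both wild-type libraries. Without KO-ifetroban replicate 1 the log2 fold changes were 4.38 and 3.73.

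Proteases and their inhibitors had a median of 0.32 with 26 of 31 members positive, 8 at an unadjusted p under 0.05 and 16 with groups apart on the higher side. These counts include Mmp8, which had 1 and 1 reads in WT-ifetroban libraries and passed the filter on low counts through other groups. Mmp3, stromelysin, stood at 11.8, 11.7 and 12.4 CPM in KO-ifetroban and 3.38 and 3.17 CPM in WT-ifetroban libraries (1.87 ± 0.526), with almost no spread within either group. Mmp12, the elastase of macrophages, was at 2.39 ± 0.697. In TGF-beta signalling the median was 0.19, 17 of 21 members were positive, 1 member had an unadjusted p under 0.05 and 10 had groups apart on the higher side. That member was the ligand gene Tgfb2, at 25.2, 19.4 and 18.1 CPM in KO-ifetroban and 9.32 and 9.43 CPM in WT-ifetroban libraries (1.15 ± 0.251). The ligand gene Tgfb1 was at 0.31 ± 0.249, and the family members Gdf15 (1.84 ± 0.931) and Inhba (2.03 ± 1.13) and the matrix protein gene Tgfbi (1.21 ± 0.550) had wide errors; without KO-ifetroban replicate 1 Inhba was at 1.26 and Tgfbi at 0.69.

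Proteoglycans were mixed, with 9 of 15 positive and a median of 0.10, which was -0.11 without KO-ifetroban replicate 3. Vcan, the provisional-matrix proteoglycan versican, stood at 33.4, 41.4 and 39.0 CPM in KO-ifetroban and 23.2 and 17.2 CPM in WT-ifetroban libraries (0.91 ± 0.274). Bgn, biglycan, was at 0.53 ± 0.174, the lubricant gene Prg4 at 2.25 ± 0.839, and Gpc1, a membrane-anchored heparan sulfate proteoglycan, at -0.30 ± 0.160. Markers of fibroblasts and of activated fibroblasts differed in size. The median of the 5 myofibroblast markers was 1.16, all of them positive. They include Cthrc1, which passed the filter on low counts through groups other than WT-ifetroban, so its sign is partly set by the filter. Postn, periostin, stood at 84.3, 111 and 149 CPM in KO-ifetroban and 61.1 and 41.4 CPM in WT-ifetroban libraries (1.16 ± 0.346). All 7 markers of fibroblasts in general were positive with a median of 0.14, and 0 of them had an unadjusted edgeR p under 0.05. The difference between these 2 lists was not tested.

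All 7 macrophage markers were positive, at 0.48 to 1.72 with a median of 0.83 (0.77 without KO-ifetroban replicate 1), 6 at an unadjusted p under 0.05 and 6 with groups apart. Their summed level was 207, 221 and 239 CPM in KO-ifetroban and 154 and 122 CPM in WT-ifetroban libraries. C1qa, a subunit of the first complement component that tissue macrophages make, stood at 64.2, 54.2 and 58.3 CPM in KO-ifetroban and 38.4 and 27.8 CPM in WT-ifetroban libraries (0.83 ± 0.231). Adgre1, the F4/80 antigen, stood at 16.7, 21.5 and 21.8 CPM in KO-ifetroban and 13.7 and 12.1 CPM in WT-ifetroban libraries (0.63 ± 0.179). The high-affinity Fc receptor gene Fcgr1 was at 1.58 ± 0.463. The wild-type libraries differed from each other in this list, WT-ifetroban replicate 1 being the higher, and the median was 1.08 without it and 0.62 without replicate 2.

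Complement genes had a median of 0.88 (0.92 without KO-ifetroban replicate 1) with 18 of 19 members positive, 11 at an unadjusted p under 0.05 and 12 with groups apart. C1qb stood at 64.6, 56.2 and 61.2 CPM in KO-ifetroban and 36.6 and 24.4 CPM in WT-ifetroban libraries (0.99 ± 0.249), and C1qc was at 0.88 ± 0.210. C4b, the fourth component, stood at 23.6, 38.9 and 71.3 CPM in KO-ifetroban and 14.7 and 14.8 CPM in WT-ifetroban libraries (1.60 ± 0.382), a value that is uncertain because of its near-identical neighbour C4a. Only C4b of these varied widely within the knockout group, with replicate 3 the highest and replicate 1 the lowest.

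The MHC class II list, which presents peptides to helper T cells, had a median of 0.83 (0.83 without KO-ifetroban replicate 1) and 13 of 13 tested members positive, 7 at an unadjusted p under 0.05 and 11 with groups apart. H2-Aa stood at 40.2, 33.2 and 45.6 CPM in KO-ifetroban and 25.0 and 19.5 CPM in WT-ifetroban libraries (0.84 ± 0.231). H2-Eb1 was at 0.82 ± 0.241 and H2-DMb1, a peptide-loading subunit, at 1.59 ± 0.451; genes of this family share sequence and their counts are uncertain. Genes of the phagocyte lysosome and lipid handling had a median of 0.39 and 19 of 20 members positive, 8 at an unadjusted p under 0.05 and 12 with groups apart. Gpnmb, a lysosomal glycoprotein of lipid-laden macrophages, stood at 4.07, 9.23 and 7.14 CPM in KO-ifetroban and 1.99 and 2.58 CPM in WT-ifetroban libraries (1.58 ± 0.385). Lgals3, galectin-3, stood at 27.9, 17.1 and 15.2 CPM in KO-ifetroban and 5.06 and 2.496 CPM in WT-ifetroban libraries (2.40 ± 0.528; DESeq2 adjusted p = 0.000463). In the list of oxidative stress genes and the phagocyte NADPH oxidase, 18 of 23 were positive with a median of 0.57, 8 had an unadjusted p under 0.05 and 14 had groups apart. Its leading members were Rac2 (1.06 ± 0.323), Ncf4 (1.66 ± 0.534) and Cybb (0.62 ± 0.224), parts of that oxidase, and the secreted peroxidase gene Gpx3 (0.57 ± 0.183).

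Of the 7 neutrophil markers listed, 4 passed the filter on low counts, at least Mmp8 and Retnlg through groups other than WT-ifetroban, so no count or median of the list is given. S100a9, a subunit of calprotectin, stood at 7.43, 5.09 and 2.44 CPM in KO-ifetroban and 0.844 and 0.475 CPM in WT-ifetroban libraries (2.90 ± 0.682; DESeq2 adjusted p = 0.00144). S100a8, the other subunit, stood at 6.31, 2.09 and 1.32 CPM in KO-ifetroban and 0.307 and 0.396 CPM in WT-ifetroban libraries (3.17 ± 0.7997). Both followed one order within the knockout group, highest in replicate 1 and lowest in replicate 3. The collagenase gene Mmp8 had 19, 21 and 12 reads in KO-ifetroban and 1 and 1 in WT-ifetroban libraries. Retnlg, a resistin-like gene of mouse neutrophils, had 22, 24 and 16 reads in KO-ifetroban and 3 and 0 in WT-ifetroban libraries. The granule genes Ngp, Camp and Ltf, which mark immature neutrophils, had at most 3 reads in any of the 5 libraries.

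Cytokines and chemokines, 33 of 36 tested members being positive, had a median of 1.89. Of the 36, 15 had an unadjusted p under 0.05 and 26 had groups apart on the higher side. Without KO-ifetroban replicate 1 only 32 members passed the filter on low counts, with 27 positive and a median of 1.26. The counts over the 36 thus take in members that passed only with that library, and are partly set by the filter. The medians of single libraries, measured from the wild-type mean, were 2.01, 1.34 and 0.73 in KO-ifetroban and 0.29 and -0.29 in WT-ifetroban libraries. Cxcl16, a membrane-bound chemokine and scavenger receptor, stood at 13.8, 16.7 and 11.1 CPM in KO-ifetroban and 8.74 and 5.94 CPM in WT-ifetroban libraries (0.92 ± 0.251). Ccl8, a monocyte chemokine, stood at 1.78, 2.33 and 3.76 CPM in KO-ifetroban and 1.27 and 0.277 CPM in WT-ifetroban libraries (1.76 ± 0.558). The receptor gene Cxcr2 had 66, 29 and 15 reads in KO-ifetroban and 5 and 2 in WT-ifetroban libraries. With so few wild-type reads it passed the filter on low counts through other groups. The receptor gene Ccr1 was at 2.63 ± 0.834, and at 2.15 without KO-ifetroban replicate 1. Both receptor genes were highest in KO-ifetroban replicate 1, which also had the most reads of the neutrophil and liver genes. The part of those reads in these results was not tested.

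**Figure D3:**
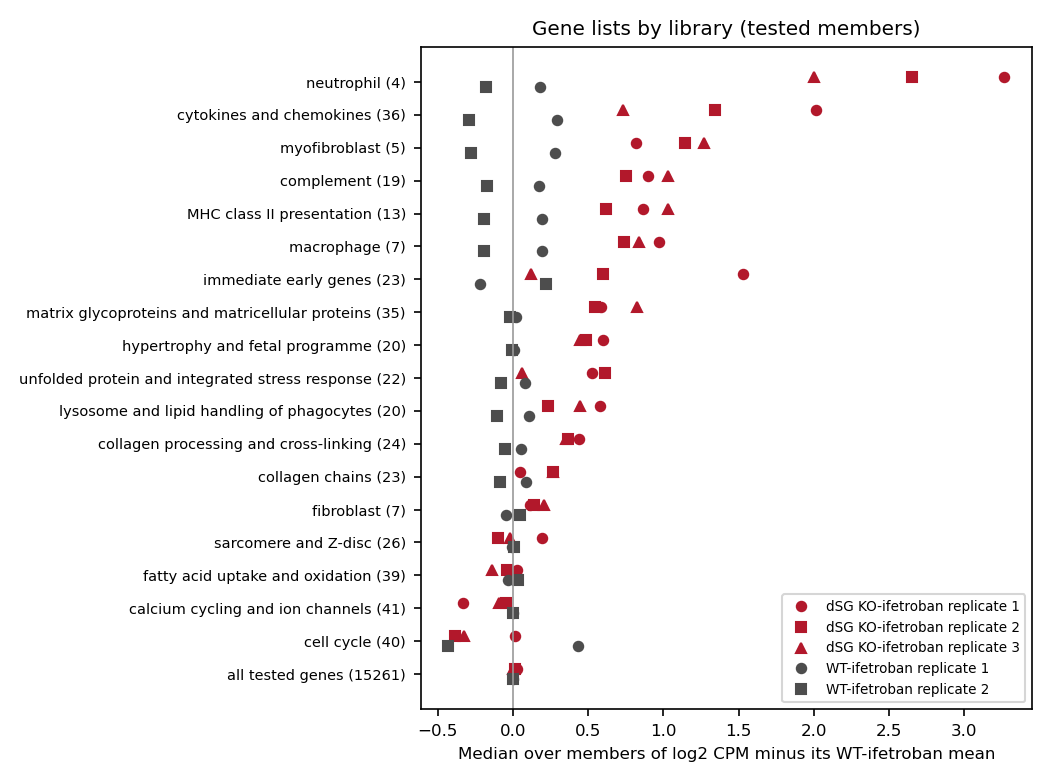
Median over the tested members of each list (number in brackets) of log2 CPM minus its WT-ifetroban mean, one symbol per library, red for dSG KO-ifetroban and grey for WT-ifetroban. The cytokine, myofibroblast, complement, MHC class II and macrophage lists have all 3 knockout libraries above both wild-type libraries. The cell cycle list lies within the spread of the wild-type pair, and all tested genes lie at 0. Nothing is read from the neutrophil row (4 of 7 listed), whose members passed the filter on low counts partly through groups other than WT-ifetroban. Part of the cytokine list passed that filter only with KO-ifetroban replicate 1 included. Cthrc1, in the myofibroblast and matrix glycoprotein lists, passed it through groups other than WT-ifetroban.

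Genes of cardiac stress stood higher in the knockout heart on ifetroban, while the fetal myosin gene overlapped between the groups. Of 20 tested genes of hypertrophy and the fetal programme 18 were positive, with a median of 0.45 (0.46 without KO-ifetroban replicate 1), 4 at an unadjusted p under 0.05 and 13 with groups apart on the higher side. Nppa, which encodes atrial natriuretic peptide, stood at 759, 379 and 363 CPM in KO-ifetroban and 208 and 279 CPM in WT-ifetroban libraries (1.04 ± 0.328; 0.61 without KO-ifetroban replicate 1). Nppb, which encodes brain natriuretic peptide, stood at 670, 519 and 372 CPM in KO-ifetroban and 139 and 262 CPM in WT-ifetroban libraries (1.38 ± 0.513). Ccn2, the pro-fibrotic connective tissue growth factor, stood at 202, 161 and 144 CPM in KO-ifetroban and 54.2 and 67.5 CPM in WT-ifetroban libraries (1.47 ± 0.577). For these 3 genes the groups were apart and replicate 1 was the highest library. Myh7, the slow fetal myosin heavy chain, stood at 207, 295 and 371 CPM in KO-ifetroban and 239 and 368 CPM in WT-ifetroban libraries, overlapping throughout (-0.06 ± 0.470, positive in 5 of 18 alternatives). Myh6, its adult counterpart, was at -0.39 ± 0.246, and at -0.20 without KO-ifetroban replicate 1.

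Several lists of the working cardiomyocyte had medians below 0. Calcium cycling genes and ion channels had 15 of 41 members positive and a median of -0.15, which was -0.06 without KO-ifetroban replicate 1, with 15 members apart on the lower and 5 on the higher side. Hrc, a calcium-binding protein of the sarcoplasmic reticulum, stood at 743, 734 and 777 CPM in KO-ifetroban and 967 and 1012 CPM in WT-ifetroban libraries (-0.40 ± 0.137). The potassium channel genes Kcnd2 (-0.72 ± 0.331), Kcnv2 (-0.64 ± 0.309) and Kcne1 (1.26 ± 0.509) went in different directions. Fatty acid oxidation genes had 14 of 39 positive with a median of -0.06, and 0 with an unadjusted edgeR p under 0.05 in either direction. In glycolysis and glucose use 10 of 26 were positive with a median of -0.11. Its hexokinase and phosphofructokinase genes split by isoform: Hk1 (0.36 ± 0.140) and Pfkp (0.60 ± 0.273), forms common outside muscle, had positive values, and Hk2 (-0.34 ± 0.159) and the muscle form Pfkm (-0.39 ± 0.169) negative ones.

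Nuclear genes of oxidative phosphorylation had 31 of 48 positive with a median of 0.06, which turned to -0.13, with 0 of 48 positive, without KO-ifetroban replicate 1. Sarcomere and Z-disc genes had 10 of 26 positive with a median of -0.06. Cardiomyocyte markers had 2 of 8 positive with a median of -0.08 and a summed level of 44158, 45917 and 48215 CPM in KO-ifetroban and 52120 and 53461 CPM in WT-ifetroban libraries. In the dystrophin-glycoprotein complex 5 of 21 tested members were positive, with a median of -0.15 (-0.08 without KO-ifetroban replicate 1), and 9 had groups apart on the lower and 2 on the higher side. Among its members were the nitric oxide synthase gene Nos1 (-1.43 ± 0.740, overlapping groups) and Cav3, muscle caveolin (0.65 ± 0.362). The partner sarcoglycans Sgca (-0.22) and Sgcb (-0.15) had small values, and Dmd, dystrophin, was at -0.41 ± 0.290. Membrane repair genes had 12 of 20 positive with a median of 0.12, led by the annexin gene Anxa1 (0.67 ± 0.208) and the calpain gene Capn3 (-0.75 ± 0.263).

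The receptor that ifetroban blocks had overlapping levels in both genotypes. Tbxa2r stood at 3.69, 1.96 and 4.03 CPM in KO-ifetroban and 3.61 and 1.94 CPM in WT-ifetroban libraries, which overlapped (0.21 ± 0.372; edgeR adjusted p = 0.979), and its sign turned in 2 of 18 alternatives. Tbxas1, thromboxane synthase, which macrophages and platelets make, stood at 5.05, 3.53 and 4.54 CPM in KO-ifetroban and 2.11 and 1.86 CPM in WT-ifetroban libraries (1.13 ± 0.355; edgeR adjusted p = 0.740). Alox5ap, the leukotriene pathway's 5-lipoxygenase-activating protein, stood at 16.5, 11.7 and 13.1 CPM in KO-ifetroban and 5.94 and 6.38 CPM in WT-ifetroban libraries (1.16 ± 0.387). Both genes had groups apart, and the macrophage markers moved with them; the part of those markers was not tested. Ptgis, prostacyclin synthase, was at 0.76 ± 0.336, the phospholipase gene Pla2g4a at 0.64 ± 0.258, the inducible cyclooxygenase gene Ptgs2 at 2.03 ± 1.06 (1.44 without KO-ifetroban replicate 1) and the constitutive Ptgs1 at 0.32 ± 0.237. Over the list of prostanoid synthesis and receptors, 17 of 28 tested members were positive with a median of 0.18 (0.11 without KO-ifetroban replicate 1), 4 had an unadjusted p under 0.05 and 11 had groups apart on the higher side. The endothelin, angiotensin and adrenergic list had 10 of 20 positive, a median of 0.02 and 0 members with an unadjusted edgeR p under 0.05.

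The next lists varied by library. Immediate early genes, which respond to stress or handling within minutes, had 22 of 23 positive with a median of 0.79 (0.39 without KO-ifetroban replicate 1), but the medians of single libraries were 1.53, 0.60 and 0.12 in KO-ifetroban and -0.22 and 0.22 in WT-ifetroban libraries, and 0 members had an unadjusted edgeR p under 0.05. Unfolded protein and integrated stress genes had 18 of 22 positive with a median of 0.42 and 7 with an unadjusted p under 0.05. The chaperone cofactor gene Sdf2l1 stood at 15.0, 15.7 and 6.79 CPM in KO-ifetroban and 5.06 and 3.41 CPM in WT-ifetroban libraries, and Manf, a secreted stress protein, at 72.4, 79.9 and 26.6 CPM in KO-ifetroban and 25.9 and 22.0 CPM in WT-ifetroban libraries. Replicates 1 and 2 were high for both genes and replicate 3 was near the wild type. Cell cycle genes had 9 of 40 positive with a median of -0.23, which was -0.45 without KO-ifetroban replicate 1 and turned to 0.24 without WT-ifetroban replicate 1. Top2a, the topoisomerase of dividing cells, stood at 2.52, 2.39 and 2.21 CPM in KO-ifetroban and 8.25 and 2.54 CPM in WT-ifetroban libraries, so that 1 wild-type library carried the difference. Pttg1 is in this list by its function, and the rest of the list gave no member that was called. In the WAVE complex list, Cyfip2 and Nckap1l lay at opposite ends, and Cyfip1, the other CYFIP subunit, was at 0.04 ± 0.184; 6 of 11 were positive with a median of 0.04.

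The same genotype difference on vehicle, from 4 other libraries, rests on 2 libraries a group, of which the library labelled WT-vehicle replicate 1 and KO-vehicle replicate 1 stood apart. The 2 contrasts share no library, only the estimate of spread. Of the 588 genes higher at an unadjusted p under 0.05 on ifetroban, 552 (93.9%) were also positive on vehicle, where 48.5% of all tested genes were positive, and 405 (68.9%) also had an unadjusted p under 0.05 there, as 8.26% of all genes did. Without the library labelled WT-vehicle replicate 1, 551 of the 588 were positive on vehicle, where 49.9% of all tested genes were. Without KO-vehicle replicate 1, 533 of the 588 were positive, where 46.0% of all were. Of the 130 lower genes, 100 (76.9%) were negative on vehicle, where 51.5% of all were, and 32 (24.6%) also passed an unadjusted p under 0.05, as 4.25% of all did. edgeR called 8 genes on vehicle (0.0524%), with 1 library left out 1 to 1734, and DESeq2 373. Pttg1 fell by 4.87 ± 0.298 and Cyfip2 by 3.19 ± 0.367 on vehicle (edgeR adjusted p = 0.000354 and 0.0220). The Pttg1 call held without any 1 of the 4 vehicle libraries (edgeR adjusted p from 0.000151 to 0.00918). Cyfip2 lost its call without either WT-vehicle library or KO-vehicle replicate 1 (edgeR adjusted p from 0.0943 to 0.222).

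The test of the difference itself, the interaction of genotype and drug, called 0 genes in edgeR and in DESeq2, and 211 (1.38%) had an unadjusted p under 0.05. On the side where the knockout's log2 fold change was lower on ifetroban, the 5 genes with the smallest interaction p were Thbs4, Frzb, Ltbp2, Dio2 and Arc. Thbs4 had a log2 fold change of 1.17 ± 0.260 on ifetroban and 3.06 ± 0.295 on vehicle, with an interaction of -1.90 ± 0.375 (edgeR adjusted p = 0.9998). Frzb, a secreted Wnt antagonist, had 0.52 ± 0.212 on ifetroban and 2.10 ± 0.242 on vehicle, and Ltbp2 1.54 ± 0.338 and 3.54 ± 0.390. Dio2, which activates thyroid hormone, had 0.97 ± 0.313 on ifetroban and 2.82 ± 0.353 on vehicle, and Arc, an immediate early gene, -0.74 ± 0.533 and 1.98 ± 0.601, with 0.57 on vehicle without KO-vehicle replicate 1.

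In the other direction stood 5 genes that were negative on vehicle and near 0 or positive on ifetroban, none of them called. They were the vesicle protein gene Sv2a (0.59 ± 0.244 on ifetroban and -0.81 ± 0.268 on vehicle), the retinoid transporter gene Abca4 (0.83 ± 0.357 and -1.20 ± 0.396), Zfand4 (0.39 ± 0.256 and -0.98 ± 0.284), Pfkfb1, which encodes a bifunctional regulator of glycolysis, (-0.24 ± 0.195 and -1.33 ± 0.223) and the galectin gene Lgals4 (0.09 ± 0.260 and -1.33 ± 0.291). By list, the medians on ifetroban and on vehicle were 0.64 and 1.14 for matrix glycoproteins, 0.15 and 0.68 for collagen chains, 1.16 and 1.66 for myofibroblast markers, and 0.45 and 1.31 for hypertrophy genes. Without KO-vehicle replicate 1 the vehicle medians of these lists were 0.76 for matrix glycoproteins, 0.56 for collagen chains, 1.21 for myofibroblast markers and 0.37 for hypertrophy genes, the last below its value on ifetroban. Without the library labelled WT-vehicle replicate 1 they were 1.09, 0.40, 1.47 and 1.35 in the same order. The medians on ifetroban and on vehicle were 0.83 and 0.88 for macrophage markers, 0.88 and 0.93 for complement and 0.83 and 0.88 for MHC class II. With 1 vehicle library left out the vehicle medians ranged from 0.75 to 1.22 for macrophage markers, from 0.89 to 1.25 for complement and from 0.39 to 1.29 for MHC class II. Long transcripts were low in both KO-vehicle libraries and 1 of the 2 WT-vehicle libraries, and KO-vehicle replicate 1 stood at 84.4 on the first principal component, beyond every other library.

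**Figure D4:**
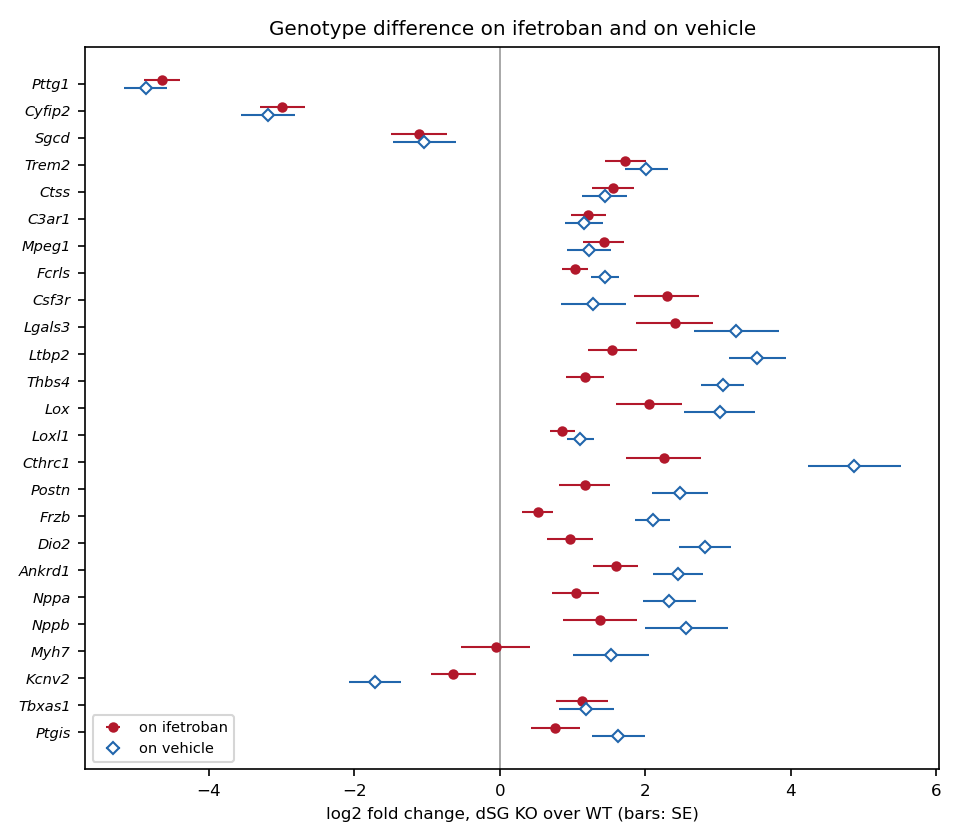
Log2 fold change of dSG KO over WT on ifetroban (red, filled) and on vehicle (blue, open) with standard errors, for 25 genes named in the text. Pttg1 and Cyfip2 have the lowest values on both treatments. Thbs4, Ltbp2, Frzb, Dio2, Postn, Lox, Ankrd1, Nppa, Nppb, Ptgis and Kcnv2 are among the genes that lie closer to 0 on ifetroban. Csf3r, Ctss, C3ar1 and Mpeg1 are among those that lie farther from 0 on ifetroban. Nothing is read from the Cthrc1 row, since that gene passed the filter on low counts through groups other than WT-ifetroban. No interaction passed the adjusted test.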

How the data were processed

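The deposited tables, 1 a library, hold raw, unnormalized counts of reads by gene, made by the authors with STAR 2.5.2b, HTSeq and build GRCm38 according to the submitters' processing notes; the annotation release is not given in the sources used here. Of the 3 count columns the reverse-strand one was used, whose counts exceeded those of the forward strand 14.5 times. Rows that name no gene held 26.6% to 31.9% of reads and were dropped. Of 49671 identifiers 49412 were matched to GENCODE M21 for symbols. Libraries of a group differed by a chi-square of 15.0 to 92.8 per degree of freedom (genes with at least 20 reads in the pair), so none was a copy of another.

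The test was glmQLFTest of edgeR 4.0.16 (R 4.3.3), following filterByExpr and TMM scaling, with 1 coefficient per group over all 9 libraries, two-sided, with Benjamini-Hochberg adjustment over 15261 genes and a threshold of 0.05. Standard errors are the fold change over the root of F and are approximate. CPM uses TMM library sizes and is not corrected for length, so it compares libraries, not genes. DESeq2 1.42.0 and voom in limma 3.58.1 were alternatives. The fits were tested on simulated data. Lists are described by counts, with no test of their own.

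The genes named are those called, with further genes by rule. Added per direction were the 12 of lowest p among properly named genes with groups apart and a log2 CPM averaging 1 or more. Also named are up to 4 of smallest p from each of the lists described, and a set of genes of heart failure and prostanoids. They are joined by the 5 per direction with the lowest interaction p, and by up to 5 in each direction called by DESeq2 only. Other members were chosen after their values were seen. A few members of these lists are not reported here. Groups, members and the 46 lists were chosen with earlier results of these data known.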

Additional observations from a re-analysis of the deposited data

How the results depend on the processing

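The ifetroban contrast was refitted with 18 alternatives and the others with 17, since 2 groups alone cannot give them; 1 alternative (leaving out KO-ifetroban replicate 1 and KO-vehicle replicate 1 together) was chosen after seeing the data. On ifetroban the count of genes called higher, 0 in the edgeR fit, was 64 with DESeq2, 382 with no filter on low counts, 10 with the 2 groups alone, 66 with voom, 9 with the added alternative, and 0 to 6 with 1 library left out (6 without KO-vehicle replicate 1 and 6 without replicate 2). The count called lower, 2, was 5 with DESeq2, 46 with no filter, 8 with voom, 1 with the length class as a term, and 1 to 2 with 1 library left out. On vehicle the count of 8 was 373 with DESeq2, 1195 with no filter, 2 with voom, 1 with the length class, and 1 to 1734 with 1 library left out (1734 without KO-vehicle replicate 2). The interaction's 0 became 73 with no filter and stayed 0 otherwise. The cause of these shifts was not tested. Where a WT group or the KO-vehicle group was left with 1 library, also for the 6 and the 1734, that library is assumed to vary like the other groups. With the replicate number as a block, 0 genes were called higher and 2 lower on ifetroban and 45 on vehicle; same-numbered libraries of 2 groups correlated at 0.0011 to 0.478, at 0.0487 and 0.0389 between KO-ifetroban and WT-ifetroban, so not every pair passed 0.1 and the numbers were not taken to pair the samples. Replicate 3, which occurs once, drops out of that fit.

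Of 118 named genes, 3 reversed sign. Tbxa2r ranged from -0.17 to 0.73 with 1 library left out, below 0 without WT-ifetroban replicate 2 or KO-ifetroban replicate 3 (-0.17 and -0.00077). Myh7 ranged from -0.34 to 0.29 (0.29 without WT-ifetroban replicate 2, 0.14 without KO-ifetroban replicate 1) and was at 0.062 with voom, 0.0051 with the length class and 0.14 with the added alternative. Lgals4 ranged from -0.12 to 0.27 (-0.066 without WT-ifetroban replicate 1, -0.12 without KO-ifetroban replicate 2) and was at -0.00071 with the length class. Cyfip2 lost its call in 7 alternatives, and 77 genes gained one in at least 1. Among list medians, cell cycle ranged from -0.61 to 0.24, oxidative phosphorylation from -0.13 to 0.15 and immediate early genes from 0.26 to 1.06.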

Other observations

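Markers of other cells in the ventricle had the following values. All 4 B cell markers were positive, with a median log2 fold change of 0.73 and between 6 and 45 reads per gene and library. All 4 platelet markers were tested, but no count of signs or median is given for them, for the reason below. The whole platelet list had 579, 444 and 389 reads in KO-ifetroban and 293 and 208 in WT-ifetroban libraries. Most were of the chemokine gene Pf4, with 439, 360 and 345 reads in KO-ifetroban and 264 and 184 in WT-ifetroban libraries. The other members therefore had few wild-type reads and may have passed the filter on low counts through groups other than WT-ifetroban. Platelets carry the receptor that ifetroban blocks, and 0 of their markers had an unadjusted edgeR p under 0.05. Erythroid markers had a median of 1.02 (0.80 without KO-ifetroban replicate 1) with overlapping groups: Alas2, the first enzyme of erythroid heme synthesis, had 200, 132 and 285 reads in KO-ifetroban and 66 and 162 in WT-ifetroban libraries. Mast cell markers had a median of 0.47 (0.14 without KO-ifetroban replicate 1). Mesothelial markers had a median of 1.10, resting on KO-ifetroban replicate 2, with 124 of the Msln reads against 10 and 48 in the other KO-ifetroban and 35 and 15 in the WT-ifetroban libraries; its median without that library was 0.30. T and NK cell and adipocyte markers were below the filter in every case.

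Endothelial markers (2 of 6 positive, median -0.05), pericyte markers (3 of 5, 0.01), smooth muscle markers (2 of 4, 0.03) and Schwann cell markers (2 of 2 tested, 0.12) stood near 0. Of the atrial list Nppa and Myl4 were tested (median 0.79, and 0.54 without KO-ifetroban replicate 1), and of the skeletal muscle list 3 genes (median 0.10). Alb and Ttr were tested of the hepatocyte list, which had 128, 17 and 26 reads in KO-ifetroban and 13 and 6 in WT-ifetroban libraries. Alb passed the filter on low counts through groups other than WT-ifetroban, so no median of that list is given. Interferon response genes had 14 of 22 positive with a median of 0.25 and 3 at an unadjusted p under 0.05, led by Zbp1, a nucleic acid sensor, with 26, 50 and 46 reads in KO-ifetroban and 17 and 13 in WT-ifetroban libraries (1.37 ± 0.348, SE). Wnt genes had 10 of 16 positive with a median of 0.24. Among them Sfrp2, a secreted frizzled-related protein of fibroblasts, had 103, 223 and 439 reads in KO-ifetroban and 64 and 86 in WT-ifetroban libraries (1.71 ± 0.626, SE), with the groups apart and replicate 3 the highest.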
